A study of Homo sapiens with 31 samples.

Results

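The 10 genes described here write, copy and erase DNA methylation or form the enzymatic core of Polycomb repressive complex 2 (PRC2). They are DNMT1, UHRF1, DNMT3A, DNMT3B, TET1, TET2, TET3, EZH1, EZH2 and SUZ12, found by symbol in the deposited table of 19221 genes, and all 10 were present. DNA methyltransferases add a methyl group to cytosine, mostly where a guanine follows, and TET enzymes oxidise that methyl group, which opens a path to its loss. PRC2 places methyl groups on lysine 27 of histone H3, a mark of silenced genes, through EZH1 or EZH2 held in a complex by SUZ12 and EED. In carcinoma cells these enzymes are studied because promoter methylation and PRC2 silence tumour suppressor and lineage genes, and because DNMT1, UHRF1 and EZH2 follow the cell cycle.

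RNA-sequencing was done on 31 libraries from human lines that the study uses as ovarian cancer lines, grown in RPMI-1640 with fetal bovine serum. The study itself questions the use of C13* because of its origin. It also states that A2780 was reported as an unlikely line of high-grade serous ovarian cancer. C13* cells carried either a control shRNA (C13* shCON, 7 libraries) or a lentiviral shRNA (C13* shCEBPB, 8 libraries) against CEBPB, which encodes the transcription factor C/EBPβ. A2780 (n = 8) was the parent line, and A2780 OlaR (n = 8) was a strain made from it by rising exposure to the PARP inhibitor olaparib until it was highly resistant. Whether the shRNA lines or the strain were single clones is not given in the sources used here. The study's methods call the samples biological replicates. No source states that they were separate cultures, so the p-values measure the spread between these libraries, which may be technical.

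CEBPB, the target of the shRNA, ranged from 75.2 to 101 FPKM (read fragments per kilobase of transcript, scaled to sequencing depth) in shCON and from 30.2 to 58.7 FPKM in shCEBPB. Every shCEBPB library was below every shCON library (two-sided exact permutation p = 0.000311, which is as small as 7 against 8 libraries allow). The group labels did not match the overall profiles. Across 12967 genes, the mean log2 profile of the libraries labelled A2780 OlaR correlated with that of C13* shCON at r = 0.993 and with that of A2780 at r = 0.709. The other pairs of groups gave r from 0.713 to 0.791. These correlations are across genes, which are not independent replicates. The keratin KRT5 was at 1368 to 1633 FPKM in shCON and 1619 to 1991 in OlaR, at 0 in A2780 and at most 0.0416 in shCEBPB. VIM was at 784 to 827 FPKM in A2780, 328 to 360 in shCEBPB, 8.49 to 10.49 in shCON and at most 0.265 in OlaR. In both labelled comparisons below, cell background and treatment therefore cannot be told apart, and the group names are the labels only. 1 of the 7 shCON libraries, replicate 1, also carries A2780 in its cell line field. Relative depth, estimated from the spacing of the lowest values, ranged from 0.865 to 1.23 of the median library.

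At an adjusted p under 0.05 by limma, 9 of the 9 members tested in C13* shCEBPB against shCON were called, where 84.7% of all genes tested were. Of these, 5 were higher, against 38.9% of all genes, and 4 were lower, against 45.7%. In 5 of the 9 no shCEBPB library lay within the shCON range or the reverse, against 66.0% of all genes. In A2780 OlaR against A2780, 9 of 10 members were called, against 89.8% of all genes, with 3 higher (40.1% of all genes) and 6 lower (49.7%). Here the ranges of 8 of 10 were separate, against 74.1% of all genes. TET1 is among the called, lower and separate members of the A2780 comparison, which it entered only through its A2780 level, so its place in these counts was fixed by the filter. The members were called about as often as other genes. The median absolute log2 fold change of the tested members was 0.44 in the C13* comparison and 0.96 in the A2780 comparison, beside 0.57 and 0.70 for all genes tested. The 0.96 includes TET1 (-2.22), which entered only through its A2780 level, and the 0.44 does not include it. A2780 OlaR against C13* shCON called 4 of 9 members, against 42.2% of all genes, and C13* shCEBPB against A2780 called 10 of 10, TET1 again included, against 88.9%. TET1 was not tested in the comparisons without A2780, because no library there reached 1 FPKM.

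**Figure D1:**
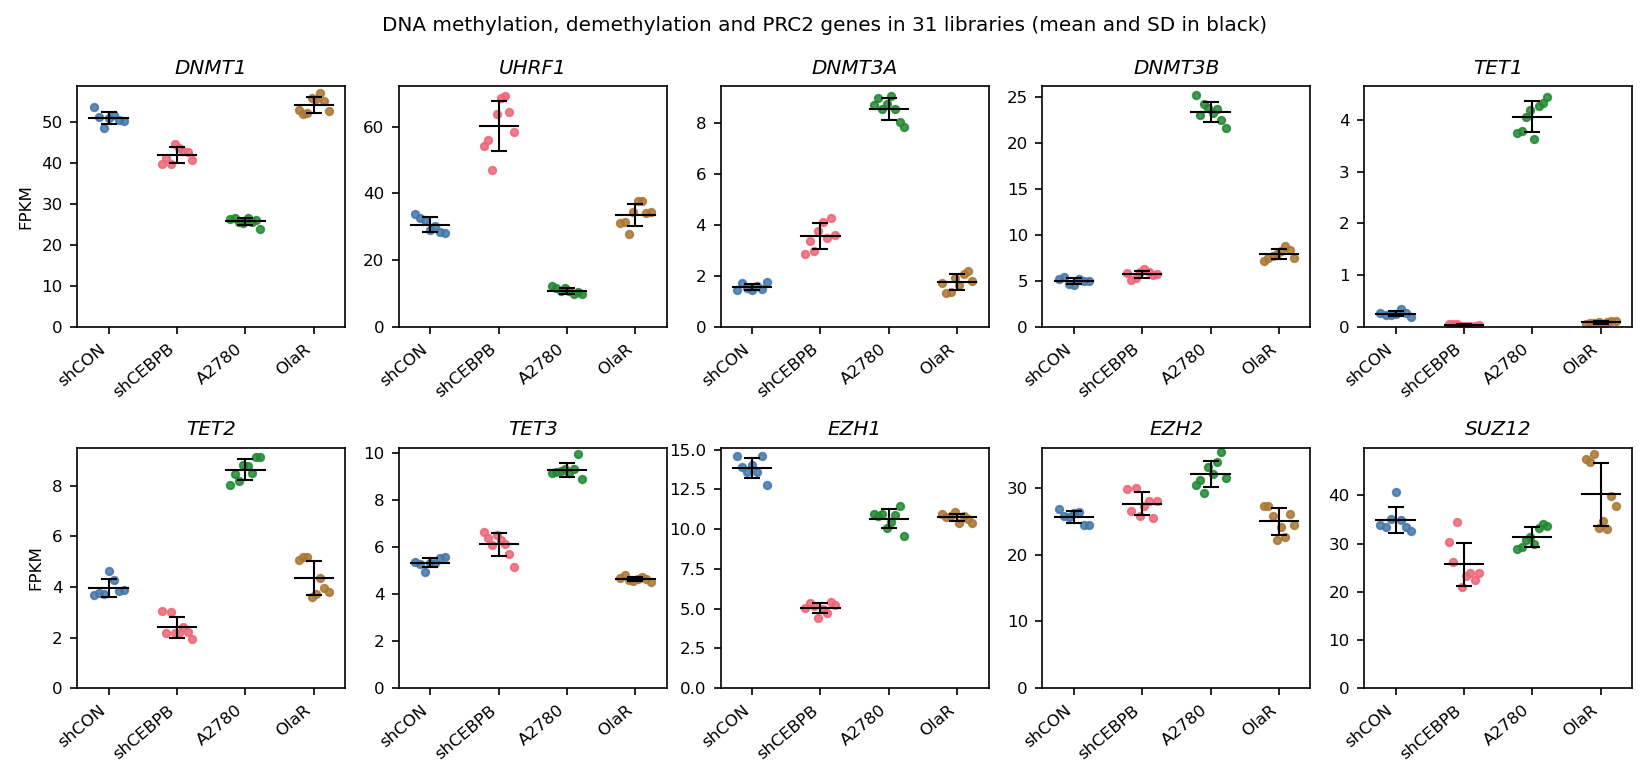
FPKM of each member (y axis, linear, from 0) in every library, grouped by label on the x axis, with the mean and SD of each group in black. DNMT3A, DNMT3B and all 3 TET genes stand highest in A2780, DNMT1 and UHRF1 stand lowest there, and UHRF1 peaks in shCEBPB at 47.1 to 69.2 FPKM.

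All 10 members matched a RefSeq promoter table (GRCh38.p14), with 22 start sites in all. The promoters were searched on both strands for TTTCCCGC and TTTGGCGC, which E2F factors of the cell cycle bind, and for TTGCNNAA, the C/EBP pattern. These are shown because several members follow proliferation and because CEBPB was the gene targeted. Either E2F motif was present in 2.27% and the C/EBP motif in 10.46% of 35116 promoters of the same length. The motifs do not overlap each other in the stretches below, where capitals mark the match. Each stretch runs 5′ to 3′ on the strand of the gene, up to the start site or, for EZH2, to the end of a match that begins 1 base past it. The distances that follow count from the start site to the first base printed in capitals.
UHRF1, chr19:4909251-4909500, plus strand, with TTTCCCGC on the opposite strand 14 bases upstream: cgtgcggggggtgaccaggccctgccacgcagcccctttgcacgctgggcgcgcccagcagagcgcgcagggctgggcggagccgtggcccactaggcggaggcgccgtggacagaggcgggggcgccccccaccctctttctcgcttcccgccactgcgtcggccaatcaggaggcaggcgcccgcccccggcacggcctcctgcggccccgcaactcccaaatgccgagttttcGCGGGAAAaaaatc
EZH2, chr7:148884283-148884541, minus strand, with TTTGGCGC on the same strand: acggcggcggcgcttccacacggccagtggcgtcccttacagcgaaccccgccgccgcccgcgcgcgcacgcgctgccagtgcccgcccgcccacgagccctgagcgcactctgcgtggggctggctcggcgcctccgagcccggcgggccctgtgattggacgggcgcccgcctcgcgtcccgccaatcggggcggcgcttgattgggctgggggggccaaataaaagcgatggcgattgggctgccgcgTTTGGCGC
SUZ12, chr17:31936757-31937006, plus strand, with TTTCCCGC on the same strand 189 bases upstream: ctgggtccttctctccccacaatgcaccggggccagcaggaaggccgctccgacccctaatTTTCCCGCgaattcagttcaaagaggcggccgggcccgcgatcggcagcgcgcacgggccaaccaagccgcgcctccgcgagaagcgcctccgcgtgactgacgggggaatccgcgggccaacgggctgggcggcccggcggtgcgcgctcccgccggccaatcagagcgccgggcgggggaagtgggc
TET1, chr10:68600018-68600267, plus strand, the second of 3 listed TET1 start sites, with the C/EBP motif on the opposite strand 77 bases upstream: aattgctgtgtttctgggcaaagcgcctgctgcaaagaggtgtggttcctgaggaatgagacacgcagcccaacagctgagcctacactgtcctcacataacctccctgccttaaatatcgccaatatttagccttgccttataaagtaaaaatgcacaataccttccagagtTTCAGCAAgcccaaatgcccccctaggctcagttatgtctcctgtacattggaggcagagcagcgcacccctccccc
UHRF1 and EZH2 also have other listed start sites, whose promoters held no match. The 3 E2F matches lie in promoters that hold 36, 46 and 40 CpG dinucleotides in the full 300 bases, and the TET1 promoter shown holds 6. The median over all promoters was 14. Member promoters without a match held from 3 (DNMT3B) to 46 (DNMT3A and UHRF1), with 30 in DNMT1 and EZH1, so a high count was not particular to the matched promoters. A match is a description of letters in these windows and not evidence of binding.

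DNMT1 (hg38 chr19:10133342-10231286, minus strand) is the maintenance methyltransferase that copies methylation to the new strand after replication. It ranged from 48.6 to 53.8 FPKM (median 50.9) in shCON, 39.6 to 44.8 (median 42.0) in shCEBPB, 24.0 to 26.6 (median 25.8) in A2780 and 52.1 to 57.2 (median 54.0) in OlaR. Every A2780 library was below every other library, every shCEBPB library lay between A2780 and shCON, and only shCON and OlaR overlapped. DNMT1 fell by 0.28 on the log2(FPKM + 1) scale in shCEBPB against shCON (SE 0.037, limma adjusted p = 1.75e-06). It rose by 1.05 in OlaR against A2780 (SE 0.031, limma adjusted p = 4.63e-17), a ratio of mean FPKM of 2.11. DNMT1 shares 83 exon bases with S1PR2 on the same strand, so a part of its reads could be counted for either gene.

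UHRF1 (chr19:4903080-4962154, plus strand), with the promoter of 1 of its listed start sites printed above, binds hemimethylated DNA and brings DNMT1 to it. Its level was 28.04 to 33.8 FPKM (median 30.1) in shCON, 47.1 to 69.2 (median 61.0) in shCEBPB, 9.66 to 12.1 (median 10.6) in A2780 and 27.9 to 37.7 (median 34.3) in OlaR. The shCEBPB libraries were the highest and the A2780 libraries the lowest, with a gap on both sides. UHRF1 rose by 0.95 in shCEBPB against shCON (SE 0.075, limma adjusted p = 1.33e-09) and by 1.55 in OlaR against A2780 (SE 0.061, limma adjusted p = 4.53e-15). UHRF1 and its partner DNMT1 thus changed in opposite directions in the C13* comparison and both rose in the A2780 comparison. The ratio of UHRF1 to DNMT1 FPKM was 0.600 ± 0.040 (SD, n = 7) in shCON, 1.43 ± 0.13 (n = 8) in shCEBPB, 0.420 ± 0.031 (n = 8) in A2780 and 0.618 ± 0.046 (n = 8) in OlaR.

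DNMT3A (chr2:25227855-25342590, minus strand) and DNMT3B (chr20:32762385-32809359, plus strand) set new methylation on unmethylated sites. DNMT3A was at 1.43 to 1.73 FPKM (median 1.51) in shCON, 2.85 to 4.27 (median 3.52) in shCEBPB, 7.82 to 9.05 (median 8.62) in A2780 and 1.30 to 2.18 (median 1.74) in OlaR. The order was A2780, then shCEBPB, then OlaR and shCON, which overlapped and did not differ beyond their spread (exact permutation test, Benjamini-Hochberg adjusted over 60 tests, p = 0.202). DNMT3A rose by 0.82 in shCEBPB against shCON (SE 0.065, limma adjusted p = 1.21e-09) and fell by 1.81 in OlaR against A2780 (SE 0.061, limma adjusted p = 3.55e-16).

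DNMT3B was at 4.56 to 5.44 FPKM (median 4.95) in shCON, 5.04 to 6.28 (median 5.74) in shCEBPB, 21.6 to 25.2 (median 23.5) in A2780 and 7.15 to 8.73 (median 7.81) in OlaR. Every OlaR library was above every shCON and shCEBPB library and below every A2780 library. DNMT3B fell by 1.46 in OlaR against A2780 (SE 0.042, limma adjusted p = 2.15e-17). It rose by 0.16 in shCEBPB against shCON with overlapping libraries (SE 0.049, limma adjusted p = 0.00505), a call that was lost among libraries 1 to 3 (0.07, limma adjusted p = 0.438). In OlaR against C13* shCON, the pair with the most alike profiles, DNMT3B rose by 0.56 (SE 0.047, limma adjusted p = 3.96e-08), more in absolute value than 96.9% of the genes tested.

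The makeup of the methyltransferase family differed more than its sum. The summed FPKM of DNMT1, DNMT3A and DNMT3B was 57.6 ± 1.76 (SD, n = 7) in shCON, 51.2 ± 2.52 (n = 8) in shCEBPB, 57.6 ± 2.02 (n = 8) in A2780 and 63.8 ± 2.70 (n = 8) in OlaR. DNMT1 made up 88.6% ± 0.53 of that sum in shCON, 82.0% ± 0.75 in shCEBPB, 44.6% ± 0.90 in A2780 and 84.97% ± 0.61 in OlaR. The A2780 libraries were therefore alone in holding more DNMT3A and DNMT3B together than DNMT1, with DNMT3B at 0.910 ± 0.039 of the DNMT1 level (SD, n = 8). DNMT3B exceeded DNMT3A in every library, by 1.30-fold to 2.04-fold in shCEBPB and by 3.81-fold to 5.74-fold in OlaR.

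**Figure D2:**
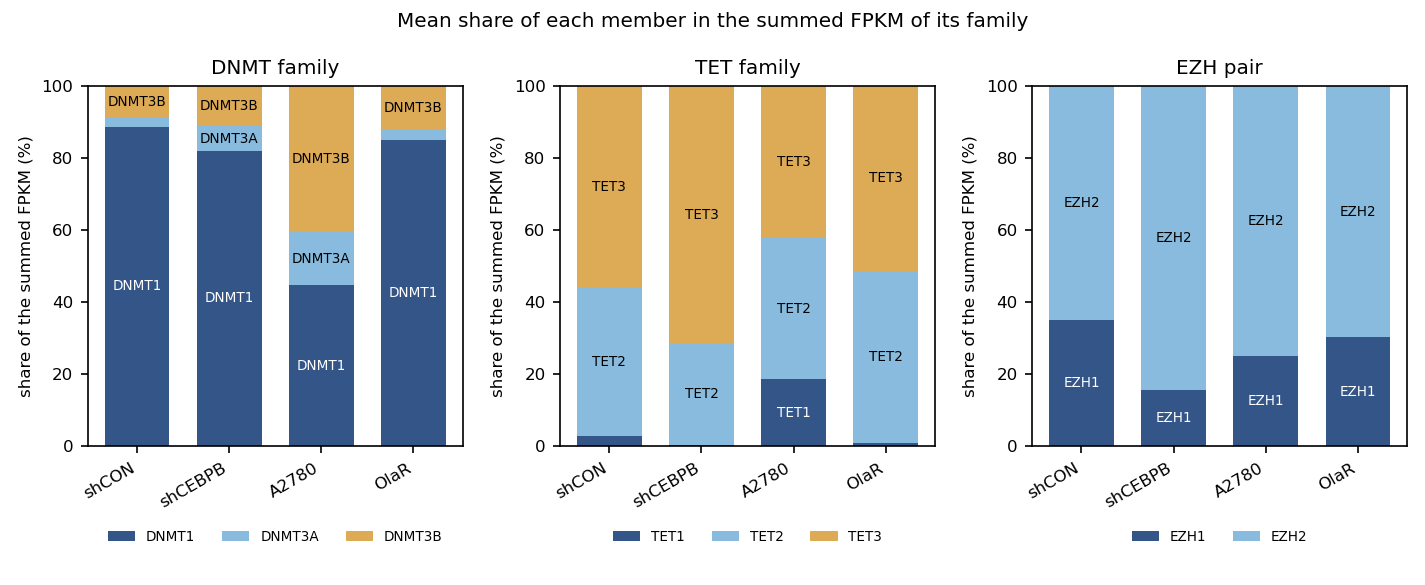
Mean share (y axis, percent) of each gene in the summed FPKM of the DNMT family, the TET family and the EZH pair, for the 4 labelled groups on the x axis. DNMT1 is 44.6% of its family in A2780 and at least 82.0% in the other groups, TET1 is visible mainly in A2780 (18.4%), and EZH1 is smallest in shCEBPB (15.4%).

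TET1 (chr10:68560337-68694487, plus strand), which oxidises 5-methylcytosine and carries a CXXC domain that binds CpG-rich DNA, was the member with the widest range. Its level was 0.180 to 0.349 FPKM (median 0.248) in shCON, 0.00538 to 0.0556 (median 0.0255) in shCEBPB, 3.64 to 4.43 (median 4.13) in A2780 and 0.0573 to 0.115 (median 0.0762) in OlaR. No group overlapped another, although the highest shCEBPB library and the lowest OlaR library were close. Read back from the spacing of the lowest values, these levels stand for about 37 to 76 fragments a library in shCON, 1 to 11 in shCEBPB, 646.5 to 860 in A2780 and 10 to 21 in OlaR. These numbers come from exon lengths of GENCODE 44 and are estimates, and counting error alone is large for shCEBPB. The ratio of mean FPKM in OlaR to A2780 was 0.020, with a log2(FPKM + 1) difference of -2.22, a scale that understates the change of low genes. No limma p is given, since TET1 was tested there only because it was high in A2780, and the exact permutation test, run on every member without a filter, gave an adjusted p of 0.000389. Between shCEBPB and shCON the ratio was 0.114, and the exact permutation test gave an adjusted p of 0.000434. The size of that difference depended on the library numbers, with mean levels of 0.0521 and 0.240 FPKM in shCEBPB and shCON among libraries 1 to 3, and of 0.0144 and 0.260 FPKM among libraries 4 to 8.

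TET2 (chr4:105145875-105279816, plus strand), a TET enzyme without its own CXXC domain, was at 3.68 to 4.65 FPKM (median 3.84) in shCON, 1.94 to 3.03 (median 2.21) in shCEBPB, 8.06 to 9.16 (median 8.65) in A2780 and 3.62 to 5.19 (median 4.17) in OlaR. A2780 was the highest and shCEBPB the lowest group, with no overlap on either side, while shCON and OlaR overlapped. TET2 fell by 0.56 in shCEBPB against shCON (SE 0.071, limma adjusted p = 9.24e-07; -0.34 among libraries 1 to 3) and by 0.85 in OlaR against A2780 (SE 0.065, limma adjusted p = 1.92e-10).

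TET3 (chr2:73984910-74108176, plus strand), the TET enzyme known for demethylating the paternal genome of the zygote, was the most abundant of the TET genes by mean FPKM in all 4 groups. It was at 4.96 to 5.57 FPKM (median 5.33) in shCON, 5.14 to 6.64 (median 6.23) in shCEBPB, 8.92 to 9.98 (median 9.23) in A2780 and 4.53 to 4.81 (median 4.64) in OlaR. A2780 stood above all other libraries and OlaR below all others. TET3 fell by 0.86 in OlaR against A2780 (SE 0.030, limma adjusted p = 5.82e-16). It rose by 0.17 in shCEBPB against shCON with overlapping libraries (SE 0.049, limma adjusted p = 0.00455), and this call was lost among libraries 4 to 8 (0.11, limma adjusted p = 0.136). TET3 shares 390 exon bases with a long non-coding RNA on the same strand, so its counting is uncertain to that extent.

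The summed FPKM of the TET genes was 21.99 ± 0.78 (SD, n = 8) in A2780 and 8.55 to 9.57 on average in the other groups. The ratio of the DNMT sum to the TET sum was 2.63 ± 0.17 (SD, n = 8) in A2780, 6.03 ± 0.31 (n = 7) in shCON, 6.04 ± 0.69 (n = 8) in shCEBPB and 7.06 ± 0.75 (n = 8) in OlaR. Every A2780 library, at most 2.86, was below every other library, at least 4.97. TET1 made up 18.4% ± 0.94 of the TET sum in A2780, 2.62% ± 0.50 in shCON, 0.905% ± 0.30 in OlaR and 0.328% ± 0.23 in shCEBPB.

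EZH1 (chr17:42700275-42745049, minus strand), the weaker methyltransferase of PRC2 and the one typical of resting cells, was at 12.8 to 14.6 FPKM (median 13.9) in shCON, 4.42 to 5.41 (median 5.08) in shCEBPB, 9.59 to 11.4 (median 10.9) in A2780 and 10.4 to 11.1 (median 10.8) in OlaR. The shCON libraries were the highest and the shCEBPB libraries the lowest, and the OlaR range lay within the A2780 range. EZH1 fell by 1.30 in shCEBPB against shCON (SE 0.046, limma adjusted p = 9.11e-15), the largest absolute change of a tested member there, to a ratio of mean FPKM of 0.363. In OlaR against A2780 its log2 fold change was 0.01 (SE 0.035, limma adjusted p = 0.760), the only tested member not called. All genes tested in that comparison had a median of -0.12, and relative to it EZH1 stood at 0.13. Scaling the libraries by quantiles or by the median ratio gave EZH1 0.13 and 0.11 with limma adjusted p of 0.00149 and 0.00598, and scaling to a common sum turned its sign (-0.05).

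EZH2 (chr7:148807257-148884321, minus strand), the more active PRC2 methyltransferase and one tied to dividing cells, varied least between groups. It was at 24.4 to 26.8 FPKM (median 25.7) in shCON, 25.5 to 30.0 (median 27.7) in shCEBPB, 29.2 to 35.4 (median 31.8) in A2780 and 22.1 to 27.3 (median 25.1) in OlaR. A2780 was above shCON and OlaR without overlap, shCEBPB overlapped A2780 at its upper end, and shCON, shCEBPB and OlaR overlapped one another. EZH2 fell by 0.35 in OlaR against A2780 (SE 0.049, limma adjusted p = 1.52e-06), with a value of -0.17 among libraries 1 to 3. In shCEBPB against shCON it rose by 0.10 (SE 0.043, limma adjusted p = 0.0385), a call that was lost with quantile normalization (0.05, limma adjusted p = 0.319). It was also lost with a common sum (0.11), a replicate block (0.097), libraries 1 to 3 (0.14) and libraries 4 to 8 (0.082), where the fold change stayed near that size. EZH2 exceeded EZH1 by 1.85-fold ± 0.090 (SD, n = 7) in shCON, 5.51-fold ± 0.47 (n = 8) in shCEBPB, 3.02-fold ± 0.23 (n = 8) in A2780 and 2.33-fold ± 0.19 (n = 8) in OlaR.

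SUZ12 (chr17:31937007-32001038, plus strand), the scaffold subunit without which PRC2 falls apart, was at 32.6 to 40.6 FPKM (median 33.9) in shCON, 21.1 to 34.5 (median 23.8) in shCEBPB, 28.8 to 34.2 (median 31.04) in A2780 and 33.1 to 48.6 (median 38.9) in OlaR. Neighbouring groups in this order overlapped. SUZ12 fell by 0.44 in shCEBPB against shCON (SE 0.087, limma adjusted p = 0.000155), a call that was lost among libraries 1 to 3 (-0.17, limma adjusted p = 0.103). It rose by 0.34 in OlaR against A2780 (SE 0.080, limma adjusted p = 0.000650). This value was 0.67 among libraries 1 to 3 and 0.13 among libraries 4 to 8, where the groups overlapped (limma adjusted p = 0.0342). A transcribed copy, SUZ12P1, lies on the same chromosome, and DNMT3A, EZH2 and TET1 have processed pseudogenes, so reads could be split between them.

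**Figure D3:**
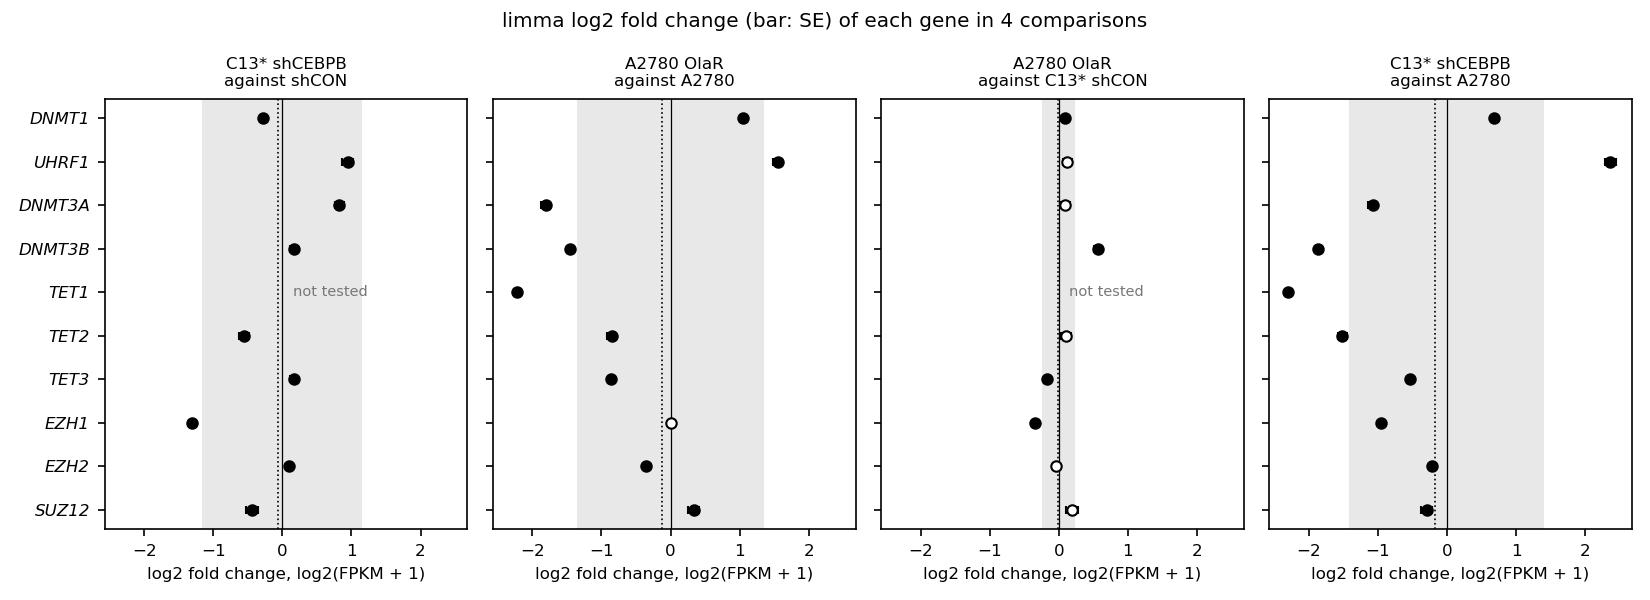
limma log2 fold change on log2(FPKM + 1) (x axis) with its SE for each member (y axis) in the 4 comparisons. Filled points were called at an adjusted p under 0.05, the grey band holds the inner 75% of absolute changes of all genes tested, and the dotted line is their median. EZH1 lies outside the band in the C13* comparison (-1.30), and DNMT3A, DNMT3B, UHRF1 and TET1 in the A2780 comparison.

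Within groups, some members differed between library numbers 1 to 3 and 4 to 8 of the labels. The meaning of these numbers is not given in the sources used here. In OlaR, SUZ12 was at 46.9 to 48.6 FPKM in libraries 1 to 3 and at 33.1 to 39.9 in libraries 4 to 8, and TET2 was at 5.06 to 5.19 and at 3.62 to 4.37. In shCEBPB, UHRF1 was at 47.1 to 56.0 FPKM in libraries 1 to 3 and at 58.3 to 69.2 in libraries 4 to 8, SUZ12 at 26.2 to 34.5 and at 21.1 to 23.9, and TET1 at 0.0503 to 0.0556 and at 0.00538 to 0.0321. These sets did not overlap within their group. Between OlaR and C13* shCON, UHRF1 had a log2 fold change of -0.12 in libraries 1 to 3 and 0.29 in libraries 4 to 8, TET2 of 0.38 and -0.08, and SUZ12 of 0.47 and 0.015. In OlaR against A2780, SUZ12 had a log2 fold change of 0.67 in libraries 1 to 3 and 0.13 in libraries 4 to 8, and EZH2 of -0.17 and -0.46.

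The direct comparison of the groups with the most alike profiles, A2780 OlaR against C13* shCON, called 4 members. DNMT3B, given above, changed most. EZH1 fell by 0.34 (SE 0.035, limma adjusted p = 5.41e-07) and TET3 by 0.16 (SE 0.034, limma adjusted p = 0.000887), both without overlap of the libraries. DNMT1 rose by 0.09 with overlap (SE 0.032, limma adjusted p = 0.0422), a call that was lost with a common sum, among libraries 1 to 3 and with a replicate block. In shCEBPB against A2780, UHRF1 rose by 2.37 (SE 0.073, limma adjusted p = 1.39e-16) and DNMT1 by 0.69 (SE 0.036, limma adjusted p = 6.33e-13), while the other 8 members fell. In that comparison SUZ12 fell by 0.29 (SE 0.082, limma adjusted p = 0.00261), but stood at 0.03 among libraries 1 to 3. The comparisons share groups, so their values are given side by side only.

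For this and the following lists, 38.9% of all genes tested were called higher and 45.7% lower in the C13* comparison. In the A2780 comparison these shares were 40.1% and 49.7%. Among 9 listed PRC2 partners, 8 were tested in both labelled comparisons. In shCEBPB against shCON, 1 rose, 3 fell and 4 were not called, with a median log2 fold change of -0.08 beside -0.07 for all genes tested. EED, which binds the methylated histone and holds the core together with SUZ12, rose from 12.97 to 23.7 FPKM on average (log2 fold change 0.82). The ratio of SUZ12 to EED was accordingly 2.70 ± 0.26 (SD, n = 7) in shCON and 1.09 ± 0.22 (n = 8) in shCEBPB. The accessory subunit JARID2 fell from 15.2 to 8.57 FPKM and the histone-binding RBBP7 from 203 to 144 FPKM, and RBBP4 was not called (21.6 and 20.7 FPKM). In OlaR against A2780, 6 partners rose and 2 fell, with a median of 0.38 beside -0.12 for all genes. JARID2 rose from 5.48 to 14.7 FPKM and PHF19 from 24.7 to 52.5, MTF2 fell from 26.2 to 14.8, and EED, RBBP4 and RBBP7 rose by 0.31, 0.46 and 0.35 on the log2 scale.

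The PRC1 subunits, which read the PRC2 mark or ubiquitinate histone H2A, were split in the C13* comparison, with 9 higher, 9 lower and 5 not called of 23 tested (median 0.05). The largest changes among called genes with separate ranges were those of BCOR (6.46 to 27.9 FPKM), CBX2 (9.48 to 38.1) and CBX8 (3.79 to 12.7) on the log2(FPKM + 1) scale. CBX7, next in size and named after its values were seen, fell from 7.51 to 2.04 FPKM. In OlaR against A2780, 20 of 24 fell, 2 rose and 2 were not called (median -0.83). Those that fell included CBX8 (40.05 to 4.56 FPKM) and BCOR (29.6 to 6.56). BMI1, also among the 20, was at most 0.433 FPKM in OlaR. It was tested only through its A2780 level, so its direction was fixed by the filter. Among genes that remove Polycomb marks, 7 of 8 tested fell in shCEBPB against shCON (median -0.68). The H3K27 demethylase KDM6A fell from 11.9 to 4.18 FPKM, MBD5 from 2.49 to 0.768 and ASXL2 from 9.95 to 5.14. MBD5, with a median of 0.733 FPKM in shCEBPB, passed the filter through its shCON level, so its direction was fixed by the filter. KDM6B fell from 10.3 to 7.72 FPKM with overlapping libraries. In OlaR against A2780, 5 of 8 rose and 3 fell (median 0.17), with KDM6B down from 38.4 to 7.65 FPKM, KDM6A from 25.8 to 12.5, and the H2A deubiquitinase BAP1 up from 22.9 to 36.3.

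Cofactors of DNA methylation fell in 6 and rose in 2 of 10 tested genes, of 11 listed, in shCEBPB against shCON (median -0.37). The gene below the filter, DNMT3L, a catalytically inactive partner of DNMT3A and DNMT3B named after its values were seen, was at 0.795 to 1.80 FPKM in shCEBPB and at most 0.0244 in shCON. AHCY, which clears the product inhibitor S-adenosylhomocysteine, fell from 230 to 109 FPKM, CDCA7 from 70.5 to 35.1, UHRF2 from 24.4 to 12.9 and the remodeller HELLS from 24.9 to 17.96. USP7, the deubiquitinase of DNMT1 and UHRF1, was not called (32.6 and 31.002 FPKM). In OlaR against A2780, 8 of 10 rose and 2 fell (median 0.84). CDCA7L rose from 0.0453 to 38.3 FPKM, CDCA7, the partner of HELLS, from 12.02 to 77.6, MAT2A, which makes the methyl donor, from 20.2 to 69.4, and HELLS from 12.9 to 26.6, while USP7 fell from 32.7 to 28.1. CDCA7L was tested only through its OlaR level, so its direction was fixed by the filter.

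Demethylation partners were called lower in 6 and higher in 4 of 12 tested genes in the C13* comparison (median -0.13), and lower in 8 and higher in 4 of 12 in the A2780 comparison (median -0.45). TDG, the glycosylase that excises oxidised methylcytosine, rose from 13.004 to 25.6 FPKM in shCEBPB and fell from 31.9 to 11.3 FPKM in OlaR. In shCEBPB, GADD45A fell from 180.0 to 18.1 FPKM and GADD45B from 63.5 to 11.04. In OlaR, OGT, which binds TET proteins, fell from 63.8 to 23.6 FPKM and IDH1, which makes the TET cosubstrate, from 137 to 52.6. Of 8 methyl-CpG readers, 5 rose and 2 fell in shCEBPB (median 0.30), led by ZBTB38 (3.42 to 20.8 FPKM), MBD4 (20.4 to 32.1) and MBD2 (16.6 to 23.5). In OlaR, 5 rose and 1 fell (median 0.25), with MBD2 up from 7.05 to 16.1 FPKM, MBD1 from 11.5 to 17.1, and ZBTB38 down from 7.88 to 2.998. Of 14 germline genes known to be silenced by promoter methylation, only HORMAD1 passed the filter, at 0 in all A2780 libraries and at 7.26 FPKM on average in OlaR, and it was not called in the C13* comparison (log2 fold change -0.03). HORMAD1 entered the A2780 comparison only through its OlaR level, so its direction there was fixed by the filter.

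**Figure D4:**
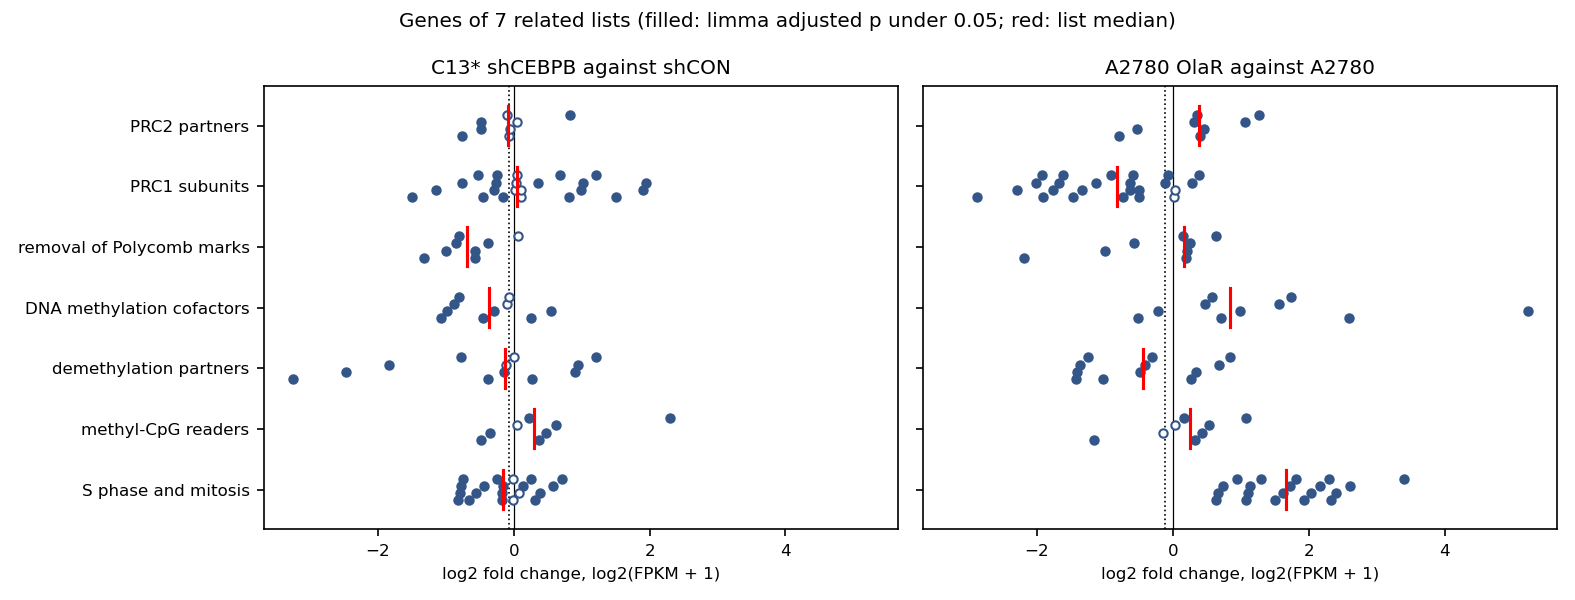
limma log2 fold change on log2(FPKM + 1) (x axis) of each tested gene of 7 related lists (y axis) in the labelled comparisons, with filled points called, open points not called, a red bar at the list median and a dotted line at the median of all genes. PRC1 subunits lie mostly left of 0 in OlaR against A2780 (median -0.83), and all 20 S phase and mitosis genes lie right of it (median 1.67). Genes tested only through 1 group, such as BMI1 and CDCA7L in OlaR against A2780, had their direction fixed by the filter.

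Genes of S phase and mitosis moved with DNMT1 and UHRF1 in the A2780 comparison. All 20 rose in OlaR against A2780 (median 1.67), with MCM4 up from 12.2 to 139 FPKM, MCM3 from 22.8 to 145, MCM5 from 18.6 to 102 and MKI67 from 13.8 to 51.2. EZH2, also tied to dividing cells, fell there. In shCEBPB against shCON, 11 of the 20 fell, 6 rose and 3 were not called (median -0.17). TOP2A went down from 189 to 107 FPKM, CCNA2 from 81.7 to 47.1 and MKI67 from 56.6 to 32.7. The largest rises, named after their values were seen, were those of MCM7 (152 to 253 FPKM) and MCM2 (108 to 162). The list was thus split in that comparison, where UHRF1 rose and DNMT1 fell. The summed FPKM of the list was 601 to 637 in A2780, 1720 to 1821 in shCEBPB, 1851 to 1979 in shCON and 1964 to 2100 in OlaR. The part of proliferation in the members' levels was not tested. Fewer cells of a type and less RNA per cell cannot be told apart in these bulk libraries.

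Lineage markers also moved with the groups. The summed FPKM of 10 squamous and epithelial markers was 4702 to 5478 in shCON, 4806 to 6097 in OlaR, 222 to 526.2 in shCEBPB and 1.65 to 4.01 in A2780. All 10 fell in shCEBPB against shCON (median -5.66), led by KRT5, KRT19 and KRT14, and all 10 rose in OlaR against A2780 (median 6.17), led by KRT5, KRT19 and SFN. Only 2 of the 10 had a mean of at least 1 FPKM in shCEBPB, and 2 in A2780. The others were tested only through the group where they were high, so their direction was fixed by the filter. The 7 mesenchymal markers summed to 897 to 943 FPKM in A2780, 358 to 387 in shCEBPB, 54.3 to 61.3 in shCON and 43.8 to 49.1 in OlaR. In shCEBPB against shCON 3 of the 7 rose and 4 fell, with VIM and ZEB1 (0.507 to 6.55 FPKM) up and SNAI2 (15.8 to 5.47) down. In OlaR against A2780 2 of 6 rose and 4 fell, with VIM and ZEB1 (14.5 to 0.536) down and SNAI2 (0.571 to 13.4) up. Of the 7, 5 had a mean of at least 1 FPKM in shCON, 4 in A2780 and 4 in OlaR. Those below included ZEB1 in shCON, VIM and ZEB1 in OlaR, and SNAI2 and FN1 (0.524) in A2780. Where tested, these genes entered only through the other group, so their direction was fixed by the filter. The ovarian and Müllerian markers summed to 998 to 1104 FPKM in shCEBPB, most of it FOLR1 (887 on average), and to 14.9 to 41.9 in the other groups. Of these, 4 were tested in the C13* comparison (3 rose, 1 fell) and 3 in the A2780 comparison (2 rose, 1 fell). A marker under 1 FPKM in every library of 1 group, as PAX8 was in shCEBPB and A2780, was tested only through the other group. MSLN was at 30.7, 154, 3.15 and 25.8 FPKM on average in shCON, shCEBPB, A2780 and OlaR. PAX8, a defining marker of ovarian serous carcinoma, was at 6.10 FPKM in shCON, 6.002 in OlaR, 0.555 in A2780 and 0.536 in shCEBPB. Of 9 markers of blood, endothelium and fibroblasts, 4 had a mean of at least 1 FPKM in A2780. They were COL3A1 at 317 to 373 FPKM, PTPRC at 75.7 to 103, and COL1A1 at 17.4 and DCN at 9.59 on average. Other markers of the list were low or absent there, with CD3E and PECAM1 at 0, CD14 at 0.309 and CD79A at 0.117 on average. PECAM1 was at 0.541 FPKM on average in OlaR. The list summed to 445 to 483 FPKM in A2780 and to at most 19.5 elsewhere, where COL1A1 led in shCEBPB (16.2 on average, 3.17 in shCON). The part of lineage in the members' levels was not tested.

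For each member, the gene outside the set with the most similar log2 profile over the 31 libraries was found among 12967 genes, as a description only, since the libraries fall into 4 groups. These were ARHGAP23 for DNMT1 (r = 0.997), INF2 for UHRF1 (0.994), the PRC1 subunit CBX8 for DNMT3A (0.991), SIDT2 for DNMT3B (0.990), ANTXR2 for TET1 (0.998), DMXL2 for TET2 (0.994), LATS2 for TET3 (0.986), TMBIM1 for EZH1 (0.990), ECT2 for EZH2 (0.942) and HSD17B12 for SUZ12 (0.965). EZH2 and SUZ12, whose group means differed least, had the lowest values.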

How the data were processed

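Total RNA was extracted with TRIzol, and libraries were sequenced as 150-bp paired-end reads. Per the methods and labels, the authors mapped reads to hg38 with TopHat, counted them with HTSeq and tested the counts with edgeR. How the authors made the deposited FPKM values, with which annotation and strand setting, is not given in the sources used here. The deposited FPKM table (19225 rows) was used as it stands, without 4 rows of 2 repeated symbols.

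Groups came from the labels. limma 3.58.1 (R 4.3.3) was fitted to log2(FPKM + 1) of the 2 groups compared, with trend and Benjamini-Hochberg adjustment over all genes tested. A gene was tested if the number of libraries with FPKM of at least 1 reached the size of the smaller group. The study's exact test on counts could not be applied to FPKM. Exact permutation tests, two-sided, were run on the members' log2(FPKM + 1) for each pair of groups, adjusted over members times pairs. The tests were checked on simulated data. Relative depth came from the worth of 1 fragment at the lowest values, with GENCODE 44 exon lengths matched for 95.1% of genes. Python 3.11.15, scipy 1.17.1 and pandas 2.3.3 were used. Gene positions are from GENCODE 44 (hg38), promoters from RefSeq.

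The members and the 12 related lists (141 genes) were chosen with earlier results of these data known. From each list, up to 3 called genes with the largest change and no overlap of libraries were named per labelled comparison, besides EED, RBBP4, RBBP7, KDM6A, KDM6B, HELLS, USP7, TDG and MKI67. Some genes that this rule names are not reported here. Alternatives were other pseudocounts, filters, scalings, fits, library subsets and call rules.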

Additional observations from a re-analysis of the deposited data

Results flagged for a closer look

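Each member was checked in each group for a library that stood apart, in 40 checks by Dixon's ratio of the gap to the range, which chance exceeds in about 1 in 20 groups. Replicate 7 of A2780 had the highest TET3 level of its group, at 9.98 FPKM, where the next library was at 9.33. Replicate 4 of C13* shCON had the highest SUZ12 level, at 40.6 FPKM, where the next was at 35.1.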

How the results depend on the processing

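Counts of called members changed by over 1.5 times only with an added limit of 2 on the fold change: to 1 member in C13* shCEBPB against shCON (3539 of all genes), 5 in A2780 OlaR against A2780 (4446 genes), 5 in C13* shCEBPB against A2780 (4710 genes) and 0 in A2780 OlaR against C13* shCON (68 genes), where the largest absolute log2 fold change of a member was 0.56, so that none could pass at any p in limma. Signs turned for EZH1 in OlaR against A2780 with a common sum (-0.052) and in libraries 1 to 3 (-0.0099), for SUZ12 in shCEBPB against A2780 in libraries 1 to 3 (0.026), and in OlaR against C13* shCON for DNMT3A (-0.050), UHRF1 (-0.12) and EZH2 (0.039) in libraries 1 to 3 and for TET2 (-0.075) in libraries 4 to 8. The order of group means, an added check chosen after seeing the data, stayed the same for 5 of 10 members in libraries 1 to 3 and for at least 9 under the other settings tried. CEBPB had a log2 difference of -1.29 in shCEBPB in libraries 1 to 3, where 3 against 3 libraries cannot give an exact permutation p below 0.1. The causes were not tested.

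Deviations from the group means of libraries with the same replicate number correlated at -0.15 on average in the C13* comparison and -0.23 in the A2780 comparison. They correlated at -0.26 in A2780 OlaR against C13* shCON and -0.25 in C13* shCEBPB against A2780. Replicates 6 and 7 of shCON carry library numbers 7 and 8, so these pairs with shCON did not match by library number. A2780 OlaR with C13* shCEBPB and A2780 with C13* shCON were not run. With a replicate block, 8, 9, 3 and 10 members were called in C13* shCEBPB against shCON, A2780 OlaR against A2780, A2780 OlaR against C13* shCON and C13* shCEBPB against A2780, and a block by library number, added after seeing the data, called 8 and 3 in the comparisons with shCON. FPKM give no counts, so depth limits the lowest gene, TET1, whose levels in shCEBPB rest on few fragments.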
